A study of Mus musculus with 6 samples.

Results

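The unfolded protein response and the integrated (amino acid) stress response were examined through 35 genes in spheres grown from MMTV-Neu mice. The genes were taken from a named list: 5 transcription factors that run these responses (the regulators), 14 genes known as targets of ATF4 (the ATF4-type targets), and 16 genes of protein folding and degradation in the endoplasmic reticulum (the ER genes). This list and the further gene lists below were chosen with earlier results of these data known. Their counts beside all genes tested are therefore descriptions and not independent support. All 35 symbols were found among the 19893 symbols that have a value in all 6 libraries, each read through its most abundant RefSeq transcript. There were 3 early lesion (EL) libraries and 3 primary tumor (PT) libraries, and all mice carried the Neu (HER2) transgene on the FvB background, under a viral promoter that acts mainly in mammary epithelium. EL spheres came from mice of 14 to 18 weeks with no palpable tumor, and PT spheres from tumor-bearing mice older than 20 weeks, so age and lesion stage changed together. Digested tissue was kept for 7 days in low-adhesion plates, with no sort of cell types given, and spheres from mice without the transgene are not part of this comparison. Nothing in the labels ties a library to its own mouse or culture, and the p-values therefore rest on a spread between libraries that may be technical only.

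When unfolded proteins build up in the endoplasmic reticulum, the sensors PERK, IRE1 and ATF6 reduce protein synthesis and raise the transcription of chaperones. PERK and other kinases, which respond to a lack of amino acids, a lack of haem or the presence of viral RNA, phosphorylate the initiation factor eIF2, and translation of Atf4 mRNA then rises. ATF4 raises genes that make or import amino acids. Much of this control acts on translation (ATF4), on splicing (XBP1) or on protein cleavage (ATF6), and none of these steps is read by mRNA counts. Cells with a high secretory load, such as milk-producing epithelium, collagen-producing fibroblasts and plasma cells, are known to keep ER chaperones high.

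Stress response genes were mostly lower in PT than in EL spheres. Of the 35 genes, 33 passed the test as lower and Atf3 alone passed as higher. Chac1 did not pass. The test was edgeR's quasi-likelihood test with Benjamini-Hochberg adjustment over 13844 genes and a threshold of 0.05, and among all genes tested it called 80.7%, made up of 40.8% lower and 39.9% higher. Against a minimum change of 1.5-fold (edgeR's glmTreat), 18 of the 35 were lower and 1 was higher, where 22.7% of all genes tested were lower and 13.6% higher. Values of EL and PT did not overlap for 34 of the 35 genes, beside 82.7% of all genes tested. The median log2 fold change of PT over EL (log2FC, given below as ± SE) was -0.84 over the ATF4-type targets, -0.64 over the ER genes and 0.0049 over all genes tested. In bulk libraries, fewer cells of a type that expresses a gene and less of its RNA per cell cannot be told apart.

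The size of these changes depends on how libraries are scaled. Levels are CPM, counts relative to the library's size, here scaled by TMM factors, which assume that most genes do not change. When the TMM factors were dropped and library totals alone were used, log2FC values shifted upward by a median of 0.25. On that scale 31 of the 35 genes passed as lower and 3 as higher, where 29.7% of all genes tested were lower and 57.1% higher. Changes smaller than 0.25 are therefore relative to the scaling, and the direction of Slc3a2, Sdf2l1 and Chac1 turned with it.

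**Figure D1:**
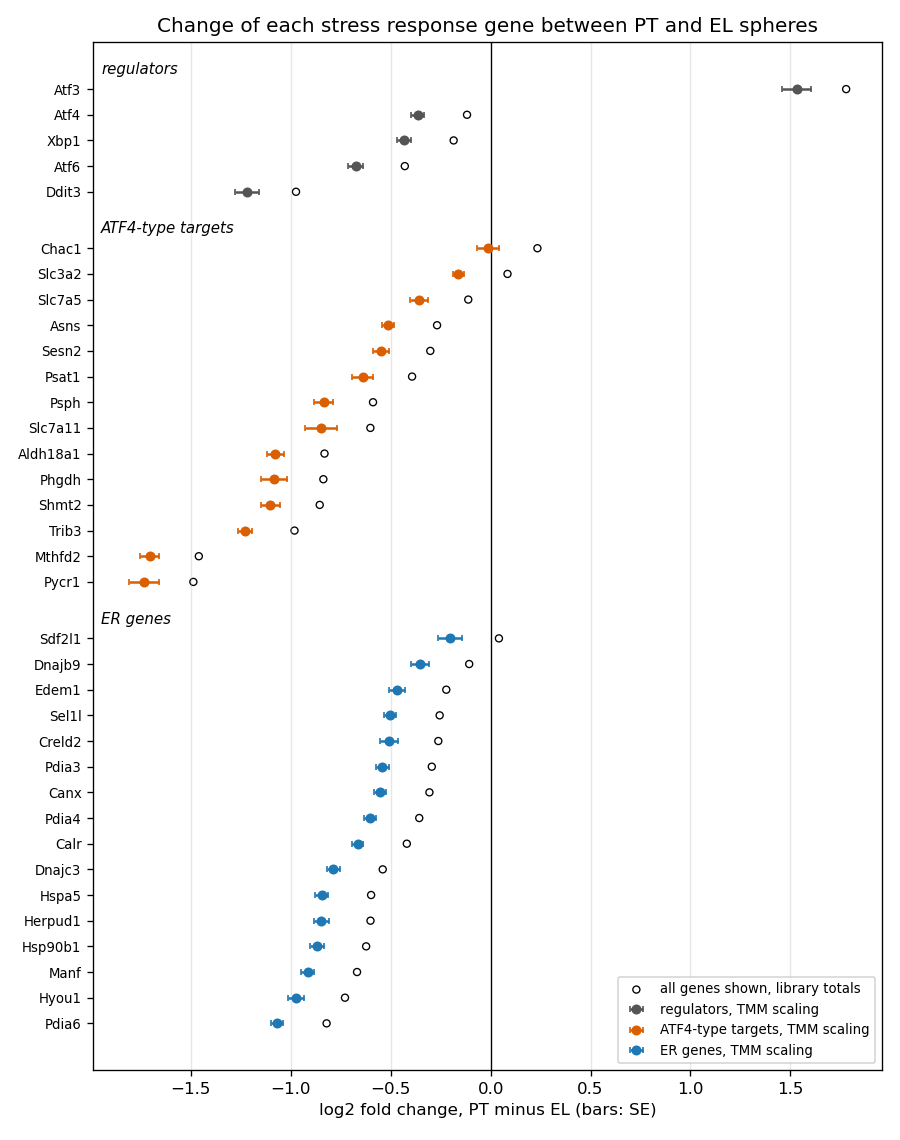
The log2 fold change (log2FC, PT minus EL) of the 35 genes is plotted on the x axis, with genes in rows grouped as regulators, ATF4-type targets and ER genes. Filled points with SE bars are TMM-scaled values and open circles use library totals. Atf3 is the only gene far to the right of 0, at 1.53, and Pycr1 and Mthfd2 lie farthest to the left, at -1.73 and -1.71.

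Markers of several cell types moved between the groups together with these genes. All 12 fibroblast markers were lower in PT, and their summed level was between 74780 and 79034 CPM in EL and between 740.4 and 883 CPM in PT. All 8 endothelial markers (244 to 264 CPM in EL, 5.60 to 6.0 in PT), all 6 pericyte markers (1419 to 1638 in EL, 137 to 147 in PT) and the 3 tested of 6 adipocyte markers (370.1 to 439.9 in EL, 32.3 to 40.7 in PT) were lower as well, with Adipoq, Plin1 and Cfd at 0 in PT. The pericyte marker Notch3 fell least of its list (log2FC -0.18) and did not pass with library totals (0.07). All 10 epithelial markers were higher, at 2598 to 2664 CPM in EL and 9140.1 to 9499 CPM in PT, as were 8 of 10 luminal secretory markers, at 5277 to 5431 and 15431 to 15546. Lcn2 made up most of the luminal secretory sum, at a mean of 2940 CPM in EL and 8281 CPM in PT. The milk protein gene Csn2 passed as lower (log2FC -2.40, from a mean of 0.704 CPM in EL to 0.132 CPM in PT), and Wap did not pass. Of 8 macrophage markers 7 were higher (312 to 328 CPM in EL, 656 to 675 in PT). Cd14 made up most of this sum, at a mean of 240 CPM in EL and 481 CPM in PT, and Csf1r did not pass. Of 9 B and plasma cell markers 4 were tested and 3 were lower (783 to 811 CPM in EL, 202 to 207 in PT). Most of that level was Sdc1, which epithelium also expresses, and Ms4a1 was at 0 in PT. The labels also name lung as a tissue of EL. The lung markers Sftpa1, Scgb1a1 and Nkx2-1 were at 0 in every library, and the summed level of the 3 tested of 8 lung markers was 9.75 to 11.0 CPM in EL and 73.0 to 79.5 in PT, most of it Sftpd. With library totals 5 of 6 pericyte markers passed as lower and all 8 macrophage markers as higher, and the other counts of passing markers given here did not change. Among all genes tested 40.8% were lower and 39.9% higher, and 29.7% and 57.1% with library totals. The part of these cell types in the stress gene changes was not tested.

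**Figure D2:**
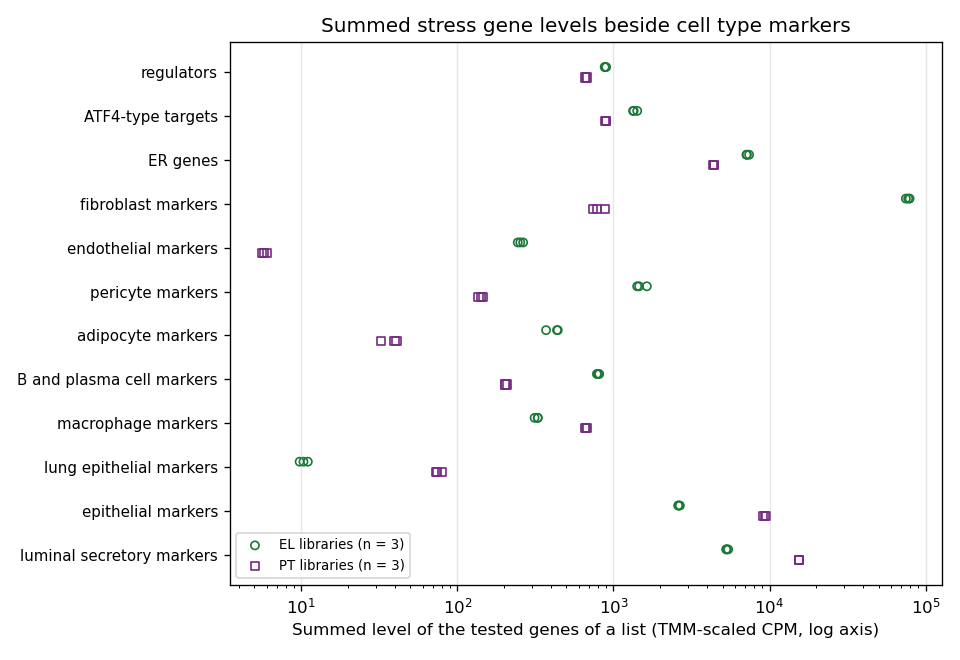
Each point is 1 library, and the x axis gives the summed TMM-scaled CPM of the tested genes of a list on a log scale, with EL as circles and PT as squares. The ER genes summed to 7116 to 7400.1 CPM in EL and 4364 to 4408 CPM in PT, a smaller distance than that of the fibroblast markers.

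Among the regulators, Atf3 rose and the other 4 fell. Atf3, a stress-inducible factor of the ATF/CREB family, stood at 10.9, 12.6 and 12.9 CPM in EL replicates 1 to 3 and at 34.5, 37.9 and 32.7 CPM in PT replicates 1 to 3. Each PT library was above each EL library, and the level rose 2.89-fold (log2FC 1.53 ± 0.07; edgeR adjusted p = 3.79e-10). Ddit3 (chr10:127290793-127296291, GRCm38.p6), which encodes CHOP, the factor linked to cell death under lasting ER stress, moved the other way. It was at 47.4, 40.8 and 45.0 CPM in EL and 19.2, 19.9 and 18.1 CPM in PT, with no overlap (log2FC -1.22 ± 0.06; edgeR adjusted p = 5.06e-10). In the annotation the Ddit3 locus overlaps the genes Mbd6 and Mars1, and reads over shared bases cannot be assigned to one of them. Mars1, listed as Mars, was at 95.9 ± 4.10 CPM in EL and 95.4 ± 0.619 CPM in PT (mean ± SD, n = 3 each) and did not pass (log2FC -0.01 ± 0.04; edgeR adjusted p = 0.863). The part of Mbd6 and of Mars1 in the Ddit3 value was not tested.

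Atf4 mRNA, the messenger whose translation rises when eIF2 is phosphorylated, was at 318, 313 and 328 CPM in EL and 253, 249 and 243 CPM in PT. The groups did not overlap, and the fall was small (log2FC -0.37 ± 0.03; with library totals -0.12). Xbp1, the target of the IRE1 ribonuclease, was at 388, 400.4 and 389.8 CPM in EL and 301, 278 and 295 CPM in PT (log2FC -0.43 ± 0.03; with library totals -0.19). Its unspliced and spliced forms have near-equal counts in these tables and could not be separated. Atf6, which encodes the membrane-bound factor released by cleavage in the Golgi, was at 115, 117 and 122 CPM in EL and 71.4, 73.5 and 76.5 CPM in PT. It was the second regulator, after Ddit3, that fell by more than the 1.5-fold minimum (log2FC -0.68 ± 0.04; edgeR adjusted p against that minimum = 0.0105). In the annotation the Atf6 locus overlaps several genes, among them the protein-coding Gm29733, so some of its reads may be shared.

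Genes for the sensors and for eIF2 control went both ways. Of 12 tested genes of this list, 7 passed as lower and 4 as higher, with a median log2FC of -0.14. Ern2, an IRE1 relative, was too low to test. With library totals, 3 passed as lower and 7 as higher. Over all genes tested, 40.8% were lower and 39.9% higher, and 29.7% and 57.1% with library totals, so these counts lie near the background and show nothing particular to the list. Ppp1r15a (GADD34), which restores translation by directing the removal of phosphate from eIF2, fell from 80.8 ± 2.76 to 45.5 ± 1.26 CPM (log2FC -0.83 ± 0.04). Ern1, the gene for IRE1, fell from 52.8 ± 1.47 to 34.5 ± 0.326 CPM (log2FC -0.61 ± 0.04). Nfe2l2, the gene for the antioxidant factor NRF2, had a log2FC of -0.45 ± 0.03 (SE). Eif2ak3, the gene for PERK, rose from 86.0 ± 1.39 to 113 ± 1.31 CPM (log2FC 0.39 ± 0.03).

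**Figure D3:**
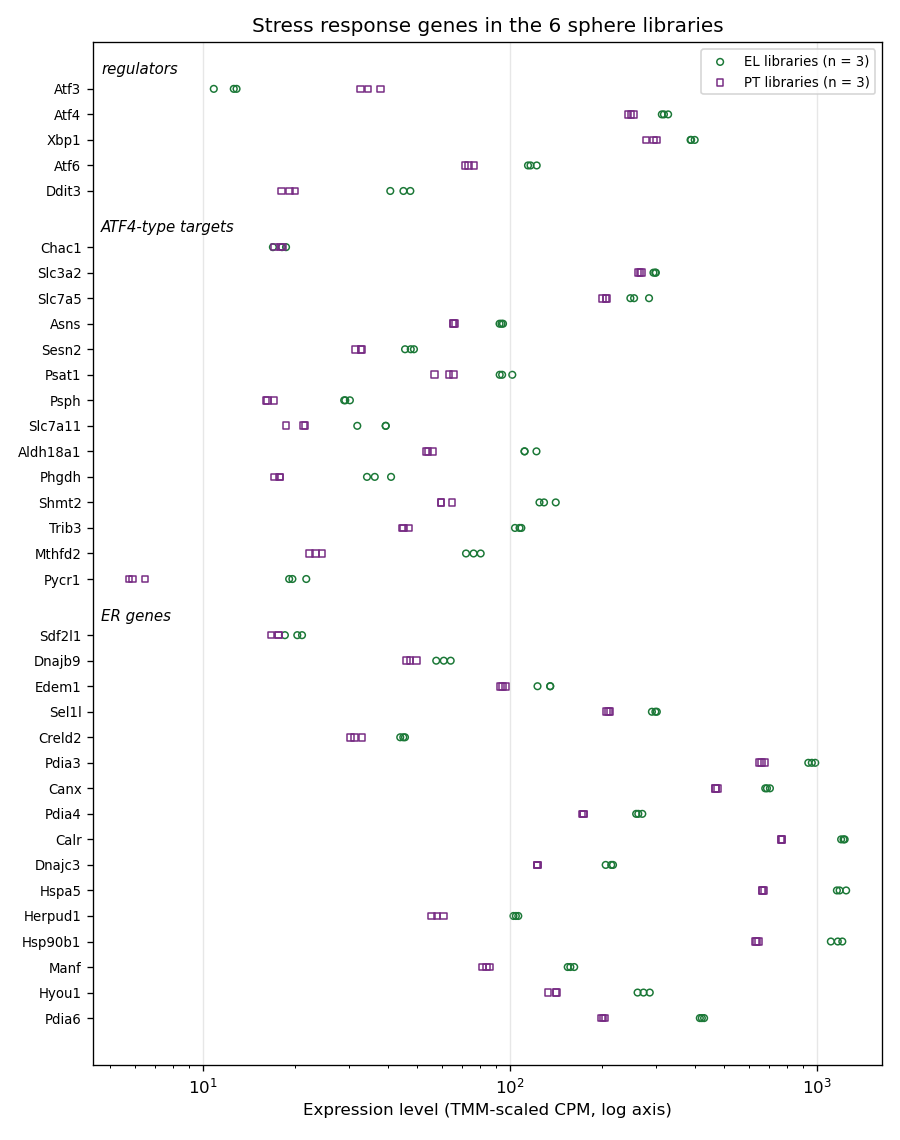
TMM-scaled CPM of each gene in each library is shown on a log x axis, with 3 EL libraries as circles and 3 PT libraries as squares. Circles and squares are apart for every gene except Chac1, whose EL and PT levels interleave near 18 CPM. The groups of Sdf2l1 nearly touch, at 18.5 CPM in the lowest EL library and 17.6 CPM in the highest PT library.

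Promoter sequence around the ATF4 response element is shown for the ATF4-type targets, because ATF4 is known to bind this element. Promoters of 31 of the 35 genes, from 250 bases before to 50 bases after the transcription start, were taken from RefSeq (GRCm38.p6). They were searched on both strands for TGATGNAA, the core of the C/EBP-ATF response element (CARE). It was present for 5 of the 13 ATF4-type targets with a promoter, 1 of 14 ER genes (Herpud1) and 1 of 4 regulators (Atf3), and in 3.97% of 32851 mouse promoters. The matches upstream of the start lie in the windows below, written in the direction of the gene with the fixed letters of the element in capitals. The arms are counted in genes and the background in promoters, so these shares have unlike units. A match is a description of letters and not evidence that ATF4 bound there.
Pycr1 (chr11:120643824-120643871, minus strand): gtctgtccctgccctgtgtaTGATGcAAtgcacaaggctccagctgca
Slc7a11 (chr3:50443633-50443699, minus strand): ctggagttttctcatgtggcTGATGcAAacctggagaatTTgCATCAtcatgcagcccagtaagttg
Asns (chr6:7693210-7693252, minus strand): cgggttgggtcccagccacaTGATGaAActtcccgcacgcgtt
Chac1 (chr2:119351029-119351076, plus strand): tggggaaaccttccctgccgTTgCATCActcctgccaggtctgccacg
Atf3 (chr1:191183416-191183463, minus strand): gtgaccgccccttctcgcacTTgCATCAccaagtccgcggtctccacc
The start used for Slc7a11 in the RefSeq table lies inside the gene span that RefSeq gives. The Trib3 match lay just after the start and is not printed. Of the 7 genes with these letters, Pycr1, Trib3, Slc7a11, Herpud1 and Asns fell, Atf3 rose, and Chac1 did not pass the test.

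ATF4-type targets passed as lower in 13 of 14 genes, 8 of them by more than the 1.5-fold minimum. With library totals 12 passed as lower and 2 as higher. For all genes tested the shares were 40.8% lower, 22.7% lower beyond that minimum, and 29.7% lower and 57.1% higher with library totals. Together the 14 targets made up 1368 ± 45.7 CPM in EL and 893 ± 8.90 CPM in PT (mean ± SD, n = 3 each). The PT level was thus 65.3% of the EL level. The 8 enzymes of amino acid synthesis all fell, with a median log2FC of -1.08. Epithelial markers rose and fibroblast and endothelial markers fell between the same libraries, as given above.

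The 2 furthest falls of the 35 genes were in mitochondrial enzymes. Pycr1, which makes proline in mitochondria, was at 19.1, 21.7 and 19.6 CPM in EL and 5.75, 6.48 and 5.91 CPM in PT. Every PT library was below every EL library, at 0.30 times the EL level (log2FC -1.73 ± 0.07; edgeR adjusted p = 1.42e-10). Mthfd2 (chr6:83305704-83326011), the mitochondrial folate enzyme of proliferating cells, was at 80.4, 72.0 and 76.2 CPM in EL and 24.5, 22.3 and 23.3 CPM in PT, again with no overlap (log2FC -1.71 ± 0.05; edgeR adjusted p = 2.28e-12). Shmt2, which splits serine into glycine and a one-carbon unit in mitochondria, was at 141, 125 and 129 CPM in EL and 64.8, 59.7 and 59.8 CPM in PT (log2FC -1.10 ± 0.05). Aldh18a1, the enzyme before Pycr1 in proline synthesis, was at 122, 112 and 112 CPM in EL and 53.3, 54.2 and 56.2 CPM in PT (log2FC -1.08 ± 0.04). All 4 mitochondrial enzymes thus had log2FC values of -1.08 or lower, a grouping by compartment that was made after the values were seen.

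The cytosolic enzymes fell by about as much or less. Phgdh, which takes glycolytic 3-phosphoglycerate into serine synthesis, was at 41.0, 34.3 and 36.3 CPM in EL and 17.8, 17.1 and 17.8 CPM in PT (log2FC -1.08 ± 0.06; edgeR adjusted p = 3.34e-09). Psph, the last step of that pathway, was at 30.1, 28.9 and 29.1 CPM in EL and 16.3, 16.1 and 17.0 CPM in PT (log2FC -0.84 ± 0.05). Psat1, the middle step, and Asns, asparagine synthetase, had smaller log2FC values of -0.64 ± 0.05 (SE) and -0.51 ± 0.03 (SE). Within serine synthesis the order by fold change was Phgdh, Psph and Psat1. The differences between these genes were not tested. The loci of Shmt2 and Psph overlap those of Ndufa4l2 and Cct6a, so some of their reads may be shared. Ndufa4l2 was at 84.6 ± 20.6 CPM in EL and 0.568 ± 0.0219 CPM in PT (log2FC -7.21 ± 0.23), and Cct6a had a log2FC of 0.01 ± 0.03 (SE). Their part in the Shmt2 and Psph values was not tested.

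Paralogs of the fallen enzymes, which lie outside the naming rule and were chosen after their values were seen, showed smaller or opposite changes. Cytosolic Shmt1 rose from 14.1 ± 1.48 to 18.0 ± 0.474 CPM (log2FC 0.35 ± 0.07), and cytosolic Mthfd1 was at 35.6 ± 0.674 CPM in EL and 32.1 ± 1.37 CPM in PT (log2FC -0.15 ± 0.04; with library totals 0.10). Mthfd2l, a close relative of Mthfd2, was at 7.55 ± 0.594 CPM in EL and 8.34 ± 0.391 CPM in PT and did not pass (log2FC 0.14 ± 0.08; edgeR adjusted p = 0.125). In the list of 17 other one-carbon and proline enzymes, 9 passed as lower and 6 as higher (6 and 8 with library totals), beside 40.8% and 39.9% of all genes tested (29.7% and 57.1%), so the counts lie near the background. The 4 with the smallest p were Oat, ornithine aminotransferase (log2FC -2.26 ± 0.04), Mthfd1l, the mitochondrial formate-producing enzyme (log2FC -2.77 ± 0.07), Glul, glutamine synthetase (log2FC 1.02 ± 0.04), and Amt of the glycine cleavage system (log2FC 1.57 ± 0.07).

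Feedback and stress genes among the targets were split. Trib3 (chr2:152337425-152344060), a pseudokinase that is induced by ATF4 and CHOP and dampens them, was at 108, 109 and 104 CPM in EL and 46.9, 45.2 and 44.8 CPM in PT. The groups were far apart (log2FC -1.23 ± 0.04; edgeR adjusted p = 1.92e-12). Sesn2, a leucine sensor that restrains mTORC1, had a log2FC of -0.55 ± 0.04 (SE). Chac1, which degrades glutathione and is among the most inducible ATF4 targets, was at 18.7, 16.9 and 18.1 CPM in EL and 18.2, 17.1 and 17.9 CPM in PT. Its groups overlapped (log2FC -0.01 ± 0.06; edgeR adjusted p = 0.841), and with library totals it was higher in PT (0.23, adjusted p = 0.00186).

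The 3 amino acid transporter genes changed by unequal amounts. Slc7a11, the light chain of the cystine importer, was at 31.9, 39.4 and 39.4 CPM in EL and 18.6, 21.5 and 21.3 CPM in PT, without overlap (log2FC -0.85 ± 0.08; edgeR adjusted p = 5.27e-07). Slc7a5 (LAT1), which imports leucine and other large amino acids, had a log2FC of -0.36 ± 0.05 (SE). Slc3a2, the heavy chain that pairs with both light chains, was at 297 ± 2.78 CPM in EL and 265 ± 3.60 CPM in PT. Its log2FC of -0.16 ± 0.03 (SE) turned to 0.08 with library totals.

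A further 21 tested genes outside the 35 are known as ATF4 targets. Of these, 17 passed as lower and 4 as higher, with a median log2FC of -0.88. With library totals 16 passed as lower and 4 as higher. Among all genes tested 40.8% were lower and 39.9% higher, and 29.7% and 57.1% with library totals. Fgf21, a stress-induced hormone, fell from 14.5 ± 0.676 to 0.162 ± 0.0866 CPM (log2FC -6.46 ± 0.17). Slc1a5 and Slc1a4, transporters of glutamine and small neutral amino acids, were lower too, the first at 70.1 ± 3.71 CPM in EL and 18.0 ± 0.195 CPM in PT and the second at 72.8 ± 1.51 CPM in EL and 21.4 ± 0.813 CPM in PT. Atf5, a factor of the mitochondrial stress response, had a log2FC of -1.68 ± 0.04 (SE). The 4 that rose, named after their values were seen, were Klhl24 (0.65), Nupr1 (0.63), Cebpb (0.34) and Cebpg (0.11). Several of 20 cytosolic aminoacyl-tRNA synthetase genes are known to be raised by ATF4. Of the 20, 13 passed as lower and 3 as higher, beside 40.8% and 39.9% of all genes tested. With library totals 9 passed as lower and 9 as higher, beside 29.7% and 57.1%. The 4 with the smallest p were Aars (log2FC -1.27 ± 0.04), Eprs (-0.82), Gars (-0.73) and Yars (-0.74).

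The ER stress element (ERSE) is shown for the ER genes, since many chaperone promoters hold it. The element reads CCAAT and then CCACG, with any 9 bases between them, and is known to bind NF-Y together with ATF6 or XBP1. It was found on either strand in the promoters of 7 of the 14 ER genes that have one in the RefSeq table, in none of the 13 ATF4-type targets or 4 regulators, and in 39 of 32851 mouse promoters (0.119%). A second form, ERSE-II (ATTGG and CCACG with any 1 base between them), was found in Herpud1 alone among the 31 promoters and in 0.0365% of all promoters. These elements were picked because they are known from such promoters, so finding them here is a description and not a result. The arms are counted in genes and the background in promoters, so the shares have unlike units. No match of the listed elements to another overlapped, and TGACGTGG, a core to which XBP1 binds, was in none of the 31 promoters (0.676% of all). In the windows the fixed letters are in capitals. In Calr, in Creld2 and in the second window of Hsp90b1 the element lies on the opposite strand and reads CGTGG, 9 bases and ATTGG.
Hspa5 (chr2:34772009-34772059, plus strand): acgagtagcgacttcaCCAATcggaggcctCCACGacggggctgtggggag
Hsp90b1 (chr10:86705622-86705672, minus strand): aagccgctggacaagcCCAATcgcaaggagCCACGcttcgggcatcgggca
Hsp90b1 (chr10:86705517-86705567, minus strand): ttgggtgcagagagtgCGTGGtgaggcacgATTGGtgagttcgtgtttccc
Calr (chr8:84847059-84847109, minus strand): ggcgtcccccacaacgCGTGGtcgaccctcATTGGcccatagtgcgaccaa
Canx (chr11:50325784-50325834, minus strand): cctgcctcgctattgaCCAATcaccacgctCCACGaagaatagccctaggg
Pdia6 (chr12:17266475-17266525, plus strand): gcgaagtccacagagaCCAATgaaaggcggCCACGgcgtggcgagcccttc
Dnajc3 (chr14:118937811-118937861, plus strand): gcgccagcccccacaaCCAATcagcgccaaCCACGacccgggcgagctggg
Creld2 (chr15:88819504-88819554, plus strand): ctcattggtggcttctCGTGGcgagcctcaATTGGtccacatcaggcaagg
Herpud1, ERSE-II (chr8:94386361-94386403, plus strand): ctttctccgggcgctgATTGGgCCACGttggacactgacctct
The 8 ER genes that hold either form had log2FC values from -1.07 to -0.51, with a median of -0.82. The 6 with a promoter and neither form lay between -0.60 and -0.21, with a median of -0.49. The ranges overlap, and this difference was not tested. Hyou1 and Manf, with log2FC values of -0.98 and -0.92, had no promoter in the RefSeq table and are in neither set. The comparison therefore leaves out these falls, which are larger than any among the 6.

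ER genes were lower in PT in all 16 cases, 8 of them by more than the 1.5-fold minimum. With library totals 15 of 16 passed as lower. Of all genes tested, 40.8% were lower, 22.7% were lower beyond that minimum, and 29.7% were lower with library totals. The summed level of the ER genes was 7226 ± 153 CPM in EL and 4386 ± 22 CPM in PT (mean ± SD, n = 3 each). PT was thus at 60.7% of EL. Per kilobase of transcript, Calr, Hspa5, Hsp90b1, Pdia3 and Pdia6 were the most abundant of the 35 genes in EL, at 558, 459, 412, 348 and 194 CPM per kilobase. In PT the top 4 places were held by Calr, Hspa5, Pdia3 and Hsp90b1, while Pdia6 dropped to rank 9 at 92.7 CPM per kilobase. The 16 genes differed less among themselves than the ATF4-type targets did, with log2FC values from -1.07 to -0.21 against -1.73 to -0.01.

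The chaperones of the HSP70 and HSP90 systems fell together. Hspa5 (BiP), the HSP70 of the ER lumen that also holds the sensors inactive, was at 1163, 1187 and 1247 CPM in EL and 663, 674 and 666 CPM in PT (log2FC -0.85 ± 0.03; edgeR adjusted p = 5.56e-11). Its PT libraries lay within a narrow band below all EL libraries. Hsp90b1 (GRP94), the HSP90 of the ER, was at 1112, 1171 and 1212 CPM in EL and 630.5, 637 and 645 CPM in PT (log2FC -0.87 ± 0.04). Hyou1 (GRP170), a nucleotide exchange factor for BiP, was at 286, 261 and 273 CPM in EL and 141, 142 and 133 CPM in PT (log2FC -0.98 ± 0.04), about as far down as Manf, a secreted BiP cofactor that was at 158, 154 and 162 CPM in EL and 83.9, 85.7 and 81.7 CPM in PT (log2FC -0.92 ± 0.03). The BiP co-chaperones were unequal. Dnajc3 (P58IPK), which also inhibits PERK, was at 214, 205 and 217 CPM in EL and 123, 123 and 123 CPM in PT (log2FC -0.79 ± 0.03). Dnajb9 (ERdj4), a classical XBP1 target, had a log2FC of -0.35 ± 0.05 (SE, and with library totals -0.11). Sdf2l1, another BiP partner, had a log2FC of -0.21 ± 0.06 (SE, edgeR adjusted p = 0.00644), and with library totals it did not pass (0.04, adjusted p = 0.527).

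The lectin chaperones that fold N-glycoproteins fell moderately. Calr was at 1223, 1201 and 1233 CPM in EL and 764, 769 and 771 CPM in PT, without overlap (log2FC -0.67 ± 0.03; edgeR adjusted p = 1.58e-10). Its membrane-bound relative Canx had a log2FC of -0.55 ± 0.03 (SE), and Pdia3, the disulphide isomerase that works with both, of -0.54 ± 0.03 (SE). Pdia6, a disulphide isomerase that also acts on the sensor IRE1, fell furthest of the ER genes. It was at 422, 416 and 429.6 CPM in EL and 204, 201 and 199 CPM in PT (log2FC -1.07 ± 0.03; edgeR adjusted p = 1.20e-12). Pdia4 and Creld2, a further isomerase, had log2FC values of -0.60 and -0.51. The loci of Hspa5, Pdia3 and Pdia6 overlap those of Rabepk, Catsper2 and Atp6v1c2 in the annotation, and shared reads cannot be assigned.

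The 3 genes of ER-associated degradation among the 35 were lower in PT. Herpud1, which organises the HRD1 ubiquitin ligase, was at 105, 103 and 107 CPM in EL and 61.0, 55.6 and 57.9 CPM in PT, with a clear gap (log2FC -0.85 ± 0.04; edgeR adjusted p = 2.17e-10). Sel1l, the HRD1 partner, and Edem1, which extracts misfolded glycoproteins, had log2FC values of -0.50 ± 0.03 (SE) and -0.47 ± 0.04 (SE). Of 17 other degradation genes, 10 passed as lower and 2 as higher, with a median of -0.16 (6 and 9 with library totals). Over all genes tested 40.8% were lower and 39.9% higher (29.7% and 57.1% with library totals), and with library totals the list lies near that background. The 2 that rose, named after their values were seen, were Edem2 (log2FC 0.48 ± 0.04) and Derl3 (log2FC 0.95 ± 0.18). Derl1, a part of the retrotranslocation channel, fell from 203 ± 3.24 to 75.8 ± 1.29 CPM (log2FC -1.42 ± 0.03). Ube2g2, a ubiquitin-conjugating enzyme, the selenoprotein gene Vimp and the lectin gene Erlec1 had log2FC values of -0.76, -0.92 and -0.66.

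Some other genes of protein secretion had larger falls than any of the 16 ER genes. Of 15 other folding genes tested, 11 passed as lower and 2 as higher, with a median of -0.25 (7 and 7 with library totals). Among all genes tested 40.8% were lower and 39.9% higher, and 29.7% and 57.1% with library totals. Pdia5 fell from 75.1 ± 1.66 to 2.58 ± 0.258 CPM (log2FC -4.86 ± 0.06). P4hb, a disulphide isomerase that is also a subunit of collagen prolyl hydroxylase, fell from 2063 ± 141 to 456 ± 3.28 CPM (log2FC -2.18 ± 0.05). Txndc5 and Ppib, both known to assist procollagen folding, had log2FC values of -1.60 ± 0.07 (SE) and -0.84 ± 0.03 (SE). Ero1lb (log2FC 0.93) and Pdia2 (log2FC 1.47) were the 2 folding genes that rose, named after their values were seen. Pdia2 was low in both groups, at a mean of 0.124 CPM in EL and 0.350 CPM in PT. Of 25 genes of translocation into and export from the ER, 21 passed as lower and 4 did not pass, with a median of -0.60. With library totals 17 were lower and 5 higher. These counts stand beside 40.8% lower and 39.9% higher among all genes tested, and 29.7% and 57.1% with library totals. Kdelr3, a receptor that returns chaperones to the ER, fell from 157 ± 3.14 to 7.35 ± 0.611 CPM (log2FC -4.41 ± 0.05). Kdelr2 and Sec24d, the latter a coat protein needed for procollagen export, had log2FC values of -1.65 and -1.77, and Ssr3, of the translocon-associated complex, of -1.30. The fibroblast markers, whose collagens pass through this machinery, had a median log2FC of -6.58 between the same libraries, and the luminal secretory markers, 8 of 10 of them higher, one of 1.32. The part of either in these changes was not tested.

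**Figure D4:**
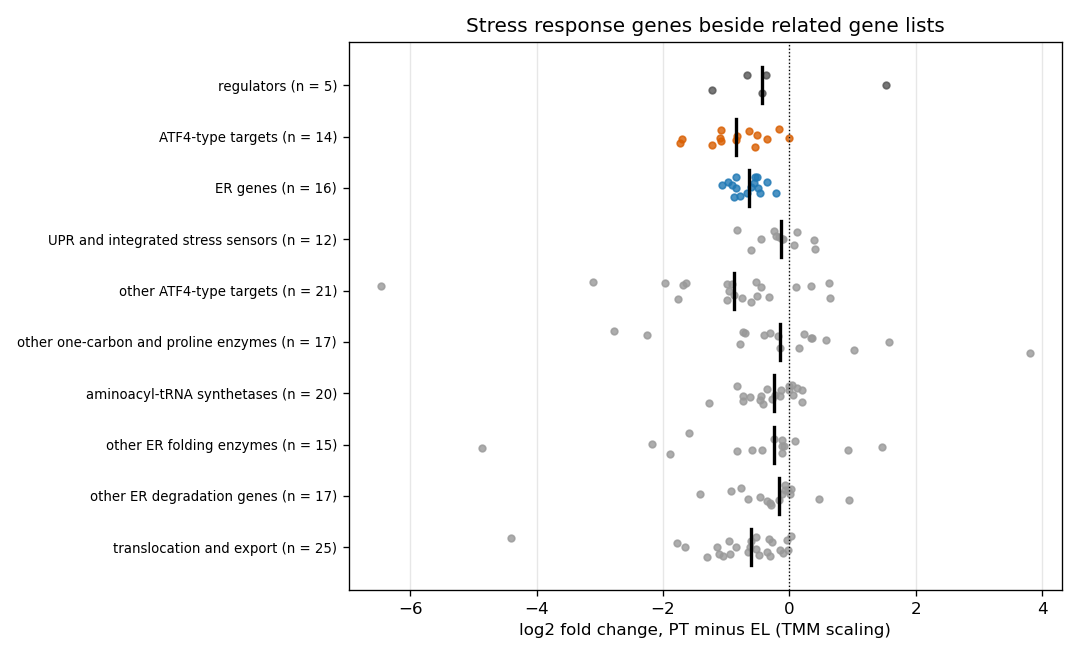
Each point is 1 tested gene, placed by its log2FC (PT minus EL, TMM scaling) on the x axis, with vertical bars at list medians. The ATF4-type targets and the list of other ATF4-type targets have medians of -0.84 and -0.88, while the sensor list has a median of -0.14.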

How the data were processed

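RNA sequencing counts of 3 EL and 3 PT sphere libraries were used. The deposited tables hold raw counts for each RefSeq transcript, unscaled by the authors. The submitters' processing notes name STAR, featureCounts, DESeq2 and the builds mm10 and hg19. No version or strand setting is given in the sources used here. Complete tables have 33068 rows, and the table of EL replicate 1 breaks off after 27664, so rows present in all 6 were used, with the transcript of the highest mean count per symbol. Counts over all rows summed to between 69759793 and 85126630 per library, and the 35 genes had 295 to 50064 counts each. Transcripts of 1 gene often have nearly equal counts, so 1 read may enter such a sum more than once.

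Genes were kept by filterByExpr, scaled by TMM and tested with edgeR 4.0.16 in R 4.3.3 on 13844 genes (biological coefficient of variation 0.0390). SE is the absolute log2 fold change over the square root of the F statistic. Replicates were not duplicates, since the chi-square per gene between libraries of a group was 2.90 to 12.4, where sampling noise alone gives about 1. Values per kilobase use GENCODE M21 transcript lengths, and promoters and positions are from RefSeq (GRCm38.p6), which matched 98.7% of transcript IDs. The members, gene lists and motifs were chosen with earlier results of these data known. All members are named, with every library's value for regulators and for the 8 ATF4-type and 8 ER genes of largest fold change, and from each pathway list the 4 genes of smallest p. Other settings tried were DESeq2 1.42.0, scaling by RLE, by upper quartiles and by library totals, other count filters, summed transcripts, the 5 complete tables, a replicate block and each library left out.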

Additional observations from a re-analysis of the deposited data

How the results depend on the processing

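All 35 genes kept their direction and their side of the threshold with RLE factors, DESeq2, a minimum of 50 counts, summed transcripts and the replicate block, and 33 were called lower and 1 higher with each library left out. With library totals 3 genes were called higher in PT, 10 instead of 18 were lower beyond the 1.5-fold minimum, and the medians were -0.39 for ER genes and -0.60 for ATF4-type targets; Slc3a2 (0.084), Sdf2l1 (0.041) and Chac1 (0.23) changed direction. Upper-quartile factors gave medians of -0.58 and -0.79, and the 5 complete tables -0.89 for ATF4-type targets. This median lay between -0.88 and -0.80 with each library left out, and that of ER genes between -0.65 and -0.62. Chac1, which did not pass, changed sign with upper-quartile factors (0.04), no count filter (0.0009), the 5 complete tables (0.013), without EL replicate 1 and without PT replicate 2, and ranged from -0.053 to 0.019 with each library left out. Apart from the scaling alternatives, whose shift is common to all genes, the cause was not tested.

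The replicate numbers share no stated source. Same-numbered libraries correlated at 0.107, 0.066 and 0.042 in their deviations from the group means. EL replicate 3 correlated as much with PT replicate 2 (0.043) as with PT replicate 3. The remaining pairs of unlike number lay between -0.088 and -0.014, so the correlations leaned weakly towards like numbers. Since no label pairs the libraries, the numbers were not taken as pairs, and a shared origin was not tested. With the replicate block 11203 genes were called instead of 11173, and no call among the 35 genes changed. Each of the 35 genes had 295 or more counts in every library, and counting error weighs most on those with the fewest counts. The limits are 3 libraries a group of unstated origin, an incomplete table, and bulk RNA from mixed cells.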

Other observations

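Within the EL group the ATF4-type targets and the ER genes did not peak in the same library. Of 14 ATF4-type targets, 10 were highest in EL replicate 1, against 3 in EL replicate 2 and 1 in EL replicate 3. Of 16 ER genes, 12 were highest in EL replicate 3 and 2 in each of the others. The summed ATF4-type level was 1420.2, 1335 and 1349 CPM in EL replicates 1 to 3, and the summed ER level was 7116, 7162 and 7400.1 CPM. Among the ATF4-type targets, Slc7a11 and Pycr1 went the other way and were lowest in EL replicate 1, at 31.9 and 19.1 CPM. In EL replicates 2 and 3 Slc7a11 was at 39.4 CPM in both, and Pycr1 at 21.7 and 19.6 CPM. EL replicate 1 is the library with the incomplete table and differed most from its group, with a chi-square per gene of 12.4 and 9.76 against EL replicates 2 and 3, which gave 4.19 between themselves. The share of all genes tested that was highest in each EL library was not counted. These counts therefore have no background beside them and may hold for other gene sets as well. They are descriptions of single libraries, with no test.

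Herpud1 was the 1 gene of the 35 whose promoter held both an ERSE form and the CARE letters. The CARE window (chr8:94386297-94386344, plus strand, GRCm38.p6) lies upstream of the ERSE-II printed above, with the fixed letters on the opposite strand in capitals.
Herpud1: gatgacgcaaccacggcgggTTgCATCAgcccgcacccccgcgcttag
Its log2 fold change was -0.85 (SE 0.04). The genes with ERSE or ERSE-II letters ranged from -1.07 to -0.51, and those with CARE letters from -1.73 (Pycr1) to 1.53 (Atf3).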
